A study of Xenopus laevis with 5 samples.

Results

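Forkhead (Fox) genes encode transcription factors that bind DNA through a conserved winged-helix domain. In the frog embryo different members act in different tissues. Foxd4l1 genes hold the early neural plate in an immature state, foxd3 acts in the neural crest, foxi1 in the epidermis, and foxa genes in mesoderm and endoderm. Foxh1, a partner of Smads in Nodal signalling, was grouped with the mesendodermal genes by that role and not as a tissue marker. The members described here are the gene copies of Xenopus laevis whose single symbol in the platform annotation starts with fox, leaving out foxo3 and foxf1. They number 19 copies of 16 genes on 22 probe sets, out of 7530 gene copies with a single symbol and 15490 probe sets. The RefSeq gene table lists 81 forkhead gene copies, and 19 of them are these members. Foxf1.L and foxo3.L, left out by the choice of members, were also measured by a probe set with their symbol alone. A further 2 forkhead probe sets carried several symbols and were not used.

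The members were 6 neural copies (the lens gene foxe3.L among them), 2 neural crest copies, 3 epidermal copies, 6 mesendodermal copies and 2 copies of broad or other use. The suffixes L and S mark the paired copies of this allotetraploid frog. Both copies were measured for 3 genes, foxa4, foxd3 and foxi4.2, and copies of a pair can share signal on short probes.

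RNA came from ectoderm explants of embryos injected at 2 cells either with zic1, in a form that a hormone switches on, or with beta globin as control. Both groups also received noggin, a BMP inhibitor that turns ectoderm neural, and both were cut at stage 9, aged to the equivalent of stage 12, given cycloheximide for 30 min and then dexamethasone for 3 h. Cycloheximide blocks protein synthesis, so the design asks which transcripts follow zic1 activity without new protein. The zic1 group had 2 arrays and the control group 3, named as biological replicates without stating embryos or days, so the p-values cover only the spread among the 5 arrays, which may be technical.

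Each value is a linear ratio of a probe set to its own median over the 5 arrays. Absolute signal was not kept, so a flat profile cannot be told from a transcript below detection. Neither can the levels of different genes be compared, nor the labelled tissue checked by the presence of its markers. In explants, fewer cells of a type and less RNA per cell cannot be told apart. The injected gene separated the groups: zic1.S read 2.98 and 2.99 with zic1 and 1.00, 0.936 and 0.755 with beta globin.

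None of the 19 forkhead copies passed an adjusted p of 0.05 (limma, adjusted over all 13717 features), where 1.69% of all features did. An unadjusted p under 0.05 was reached by 2 of 19, foxd1.L and foxd4l1.1.S, against 21.3% of features. The 2 genes that the choice of members sets aside had both passed: foxf1.L was higher in zic1 explants by 1.73 ± 0.11 on the log2 scale (adjusted p = 0.0137) and foxo3.L by 1.34 ± 0.13 (adjusted p = 0.0279). The count of 0 therefore holds for the 19 copies and not for the forkhead family as measured, since 2 of the 21 copies with a single symbol passed.

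The zic1 mean lay above the control mean in 15 of 19 copies and below it in 4, where it lay above in 50% of features. The median log2 difference was 0.09 over the 19 copies, against -2.06e-05 over all features and -0.03 over the features with a single symbol. All zic1 arrays lay above all controls in 4 copies, foxd1.L, foxd4l1.1.S, foxi1.L and foxd2.S, and 19.9% of features did the same. In the other direction the count was 0 of 19, against 19.5%. The 4 copies are a share near that of all features. With foxf1.L and foxo3.L counted in, 6 of 21 copies had all zic1 arrays higher and 0 had all lower. The zic1 mean was then higher in 17 of 21, and the median was 0.17. Of the 7530 features with a single symbol, 1301 had all zic1 arrays higher and 1868 all lower, and 3309 had a higher zic1 mean.

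**Figure D1:**
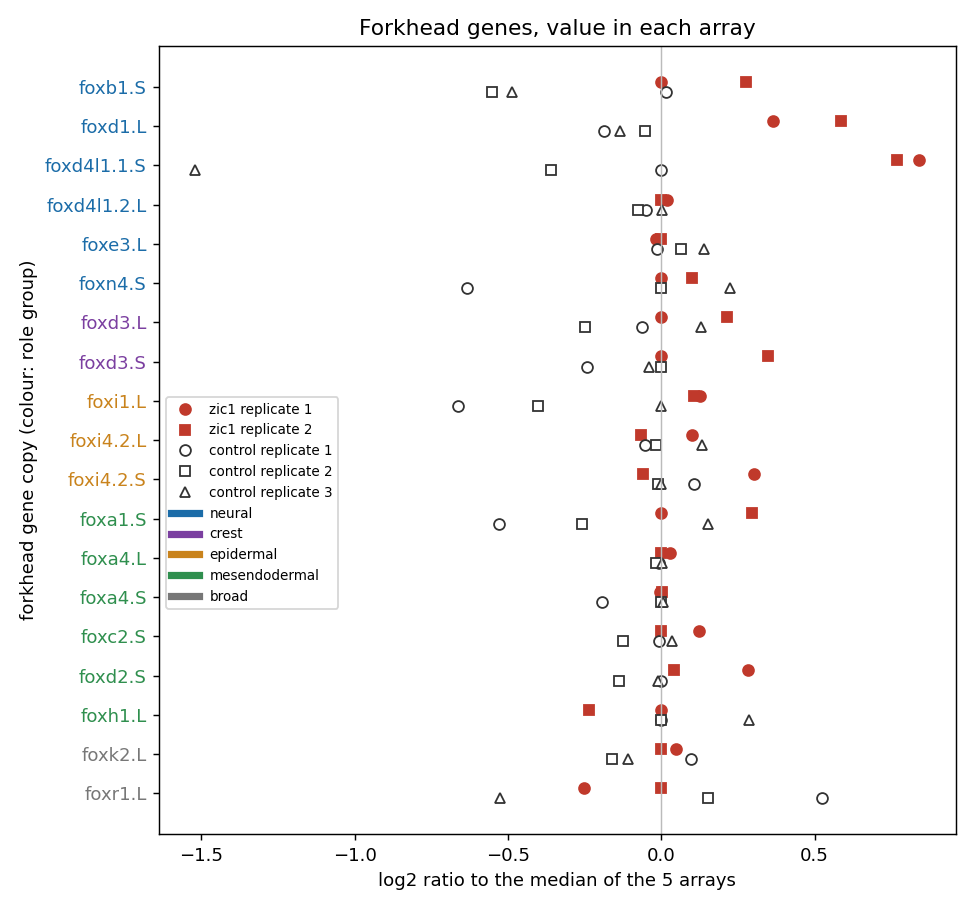
The log2 ratio of each forkhead gene copy to its median over the 5 arrays (horizontal axis) is shown for the 2 zic1 arrays (filled) and the 3 controls (open), with names coloured by role group. Foxd4l1.1.S spreads most, from -1.52 in control replicate 3 to 0.84 in zic1 replicate 1, while foxa4.L stays between -0.02 and 0.03.

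The intervals bound how large a difference in the array ratio these arrays leave room for. They do not bound a transcript below detection. In 18 of 19 copies the 95% interval of the log2 difference lay inside a 2-fold change either way, as it did in 90.6% of features. The exception was foxd4l1.1.S, whose interval ran from 0.30 to 2.57. Each interval is for 1 copy and is not adjusted for the number of copies. For foxd1.L it is that of the mean over 2 probe sets. The probe set with the larger difference had an interval of 0.56 to 1.21 on its own, which crosses a 2-fold rise. Foxi4.2.L also counts by the mean over 2 probe sets, whose own intervals lie on opposite sides of 0 (-0.58 to -0.02 and 0.06 to 0.52).

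**Figure D2:**
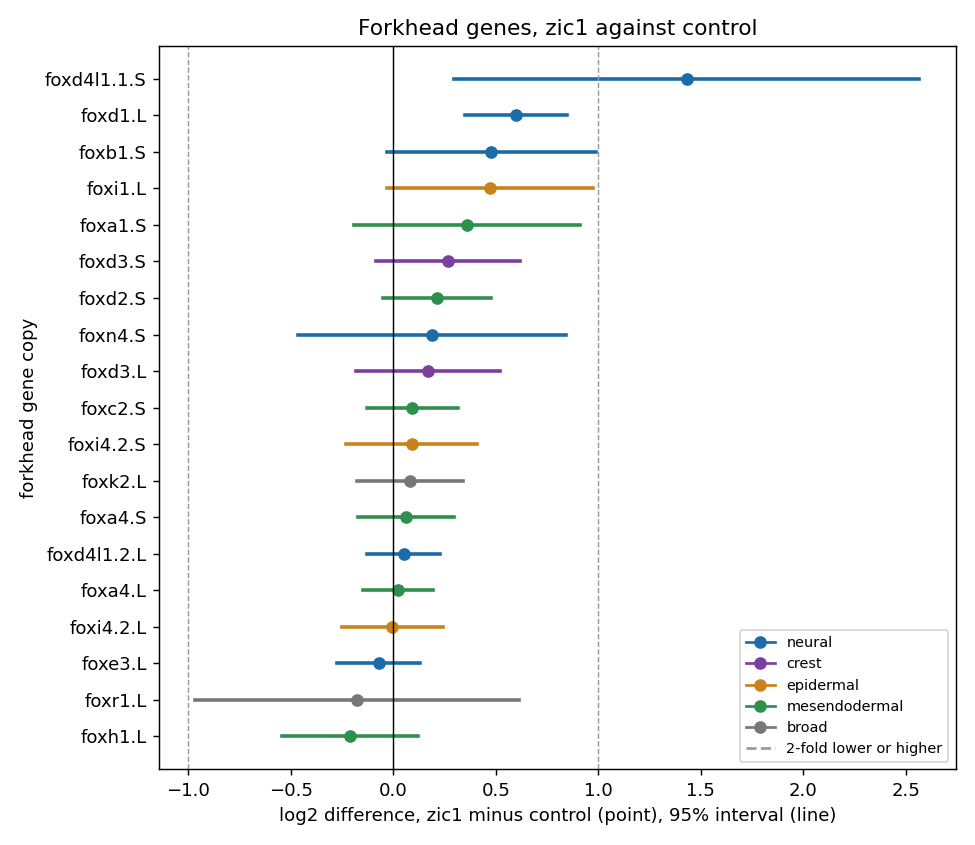
The log2 difference between zic1 and control explants (points) is drawn with its 95% interval (lines) for the 19 forkhead gene copies, coloured by role group and ordered by size. Dashed lines mark a 2-fold change, which only the interval of foxd4l1.1.S crosses.

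The neural copies held the largest differences. Foxd4l1.1.S, a gene known in Xenopus as foxd5 that keeps neural plate cells from differentiating, read 1.79 and 1.71 with zic1. Its controls read 1.00, 0.780 and 0.349, so the groups did not overlap and control replicate 3 lay far below the other controls. The log2 difference was 1.43 ± 0.45, a 2.70-fold change with a 95% interval of 1.23 to 5.92 (adjusted p = 0.157, limma). Without control replicate 3 the difference was smaller and its SE too, at 0.98 ± 0.14 (adjusted p = 0.0611, limma). That was the lowest difference when any 1 array was left out, and the highest was 1.74.

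Other neural genes in the same arrays were read from lists chosen with earlier results of these data known. The mean log2 ratio of the 13 neural plate copies (sox2, sox3, sox11, gmnn, irx, zeb2 and zic genes, the injected zic1 included) was -0.30 in control replicate 3, against 0.01 and -0.15 in the other controls and 0.43 and 0.36 with zic1. The 8 copies of neural ectoderm markers averaged -0.09 in control replicate 3, against -0.04 and -0.05 in the other controls. The sox2.L, sox3.L and sox3.S copies are in both lists. Endoderm markers had a mean of 0.68 in control replicate 3 against -0.29 to -0.01 in the other arrays. Control replicate 2 stood apart in other lists. Its cement gland markers had a mean of 0.93 against -0.33 to -0.07 in the other arrays. For multiciliated cell and ionocyte markers the mean was 0.53 there against -0.36 to 0.06. The part of such tissues in the value of foxd4l1.1.S was not tested.

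Foxd4l1.2.L, a related gene of the same foxd4l1 group, was nearly flat. It read 1.01 and 1.00 with zic1 and 0.967, 0.949 and 1.00 with beta globin, with overlapping groups. Its difference was 0.05 ± 0.07, with a 95% interval of -0.13 to 0.23 that does not meet the interval of foxd4l1.1.S. The difference between both copies was not itself tested.

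Foxd1.L, a factor of the forebrain and retina, came nearest to the threshold, at rank 320 of 13717 features by p. As the log2 mean of 2 probe sets it read 1.29 and 1.50 with zic1 and 0.879, 0.965 and 0.912 with beta globin. The groups did not overlap, and the controls lay within a narrow range. The log2 difference was 0.60 ± 0.10, a 1.51-fold change with an interval of 1.28 to 1.80 (adjusted p = 0.0587, limma). With single arrays left out the difference stayed between 0.49 and 0.71.

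The 2 foxd1.L probe sets agreed in direction but not in size. One read 1.52 and 1.87 with zic1 against 0.915, 1.00 and 0.831 with beta globin, a log2 difference of 0.89 ± 0.13 (adjusted p = 0.0512 over all probe sets, limma). The other read 1.09 and 1.205 against 0.845, 0.931 and 1.00, a difference of 0.31 ± 0.10 (adjusted p = 0.181, limma). In both, each zic1 array lay above each control.

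Foxb1.S, a gene of the neural plate and later of the midbrain and hindbrain, read 1.00 and 1.21 with zic1 and 1.01, 0.682 and 0.714 with beta globin. Zic1 replicate 1 and control replicate 1 were nearly equal, so the groups overlapped. The difference was 0.48 ± 0.20 (adjusted p = 0.257, limma). Foxn4.S, a gene of retinal progenitors, read 1.00 and 1.07 against 0.644, 1.00 and 1.17, and its difference of 0.19 ± 0.26 turned to -0.06 without control replicate 1. Foxe3.L, a lens gene, differed by -0.07 ± 0.08 and kept between 0.988 and 1.101 in all arrays.

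Over the 6 neural copies the median log2 difference was 0.33, and 0.19 over the 5 without foxd4l1.1.S. The mean log2 ratio of the 6 was 0.20 and 0.29 with zic1 and -0.14, -0.16 and -0.30 with beta globin. Without foxd4l1.1.S it was 0.07 and 0.19 with zic1 and -0.17, -0.12 and -0.05 with beta globin. None of the 8 copies of neural ectoderm markers passed, with a median of 0.28 and means of 0.18 and 0.13 with zic1 against -0.09 to -0.04 with beta globin. All zic1 arrays lay above all controls in 6 of the 8 and below them in 1, against 19.9% and 19.5% of features.

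Both copies of foxd3, a regulator of neural crest cells, lay slightly higher in the zic1 explants without passing. Foxd3.S read 1.00 and 1.27 with zic1 and 0.846, 1.00 and 0.973 with beta globin, a difference of 0.27 ± 0.14 (adjusted p = 0.346, limma). Foxd3.L read 1.00 and 1.16 against 0.958, 0.841 and 1.095, a difference of 0.17 ± 0.14 (adjusted p = 0.557, limma). Without zic1 replicate 2 the differences were 0.094 for foxd3.S and 0.060 for foxd3.L; with any 1 array left out they ran up to 0.44 and 0.27. In both copies zic1 replicate 2 was the highest array and zic1 replicate 1 overlapped the controls. The upper end of the 95% interval was 0.62 for foxd3.S and 0.52 for foxd3.L. A 2-fold rise in the array ratio lies outside both intervals, which do not bound a transcript below detection.

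Of 15 copies of other crest genes 2 passed, both higher: snai1.S, a zinc-finger repressor, by 2.76 ± 0.20 (adjusted p = 0.0154) and pax3.S, a paired-box gene of the plate border, by 1.46 ± 0.10 (adjusted p = 0.0151). Of all features 1.69% passed. The median over the 15 copies was 0.19, with values from -0.62 to 2.76. All zic1 arrays lay above all controls in 9 of the 15 and below them in 3, against 19.9% and 19.5% of features. Of the 5 copies of neural crest markers, a narrower list whose copies are all among the 15, 0 passed, with a median of 0.59. Their values therefore repeat part of the longer list. In all 5 each zic1 array lay above each control, as it did in 19.9% of features. Foxd3 was in neither list.

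Among the epidermal copies, foxi1.L, a gene of epidermis and ionocytes, showed the largest difference. It read 1.09 and 1.08 with zic1 and 0.631, 0.757 and 1.00 with beta globin, with no overlap although control replicate 3 lay close below. The difference was 0.47 ± 0.20 (adjusted p = 0.256, limma). It ran from 0.32 without control replicate 1 to 0.65 without control replicate 3. Epidermal markers had a mean log2 ratio of -0.46 and 0.03 with zic1 and -0.31, 0.36 and 0.24 with beta globin. Of their 8 copies 0 passed, where 1.69% of all features did. All zic1 arrays lay below all controls in 2 of the 8 and above them in 0, against 19.5% and 19.9% of features. Of 4 copies of multiciliated cell and ionocyte markers (foxi1 and foxj1 left out) 0 passed, with a median of -0.38. The counts above and below were 0 and 0 there. The part of such tissues in the value of foxi1.L was not tested.

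Foxi4.2.L, another ectodermal FoxI gene of Xenopus, had 2 probe sets that pointed opposite ways. One read 0.928 and 0.838 with zic1 and 1.00, 1.06 and 1.203 with beta globin, a log2 difference of -0.30 ± 0.11 (adjusted p = 0.214 over all probe sets, limma). The other read 1.24 and 1.09 against 0.930, 0.924 and 1.00, a difference of 0.29 ± 0.09 (adjusted p = 0.166, limma). In neither did the groups overlap, so the mean of -0.004 ± 0.098 over both hides their disagreement and gives the gene no direction. The paired copy foxi4.2.S read 1.23 and 0.959 against 1.08, 0.993 and 1.00, a difference of 0.09 ± 0.13.

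**Figure D3:**
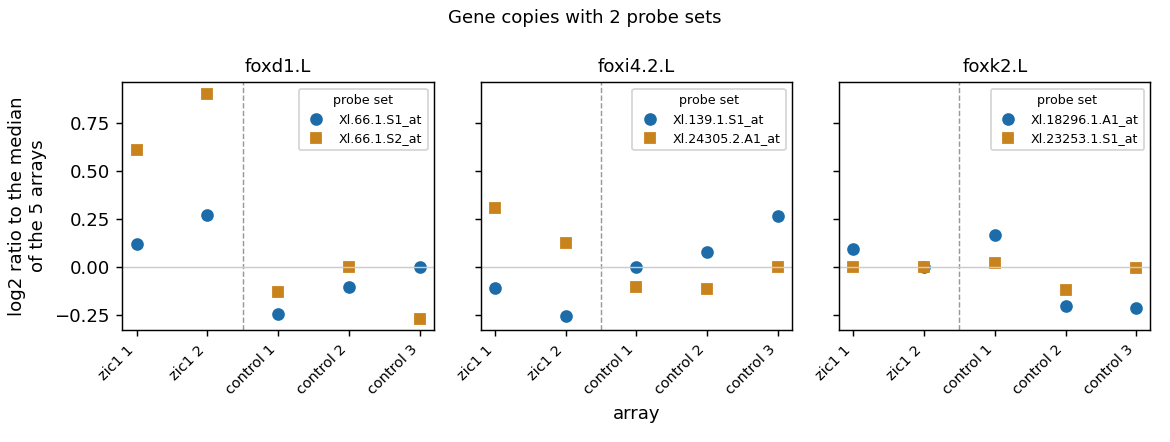
The log2 ratio of each probe set in the 5 arrays is shown for the 3 gene copies with 2 probe sets; a dashed line parts zic1 from control arrays. Both foxd1.L probe sets are higher in the zic1 arrays, those of foxi4.2.L go opposite ways, and those of foxk2.L overlap between groups.

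The mesendodermal copies differed little. Foxa1.S, an endodermal pioneer factor, had their largest difference with all 5 arrays, 0.36 ± 0.22 (adjusted p = 0.418, limma). It read 1.00 and 1.23 with zic1 and 0.693, 0.837 and 1.11 with beta globin, and control replicate 3 lay above zic1 replicate 1. Foxd2.S, a gene of paraxial mesoderm, read 1.22 and 1.03 against 1.00, 0.909 and 0.993, a difference of 0.21 ± 0.10 (adjusted p = 0.327, limma). Its groups did not overlap, by a narrow margin, and the difference was 0.091 without zic1 replicate 1 and 0.33 without zic1 replicate 2. Foxa1.S ran from 0.20 without control replicate 1 to 0.54 without control replicate 3, and without zic1 replicate 2 (0.21) or control replicate 1 it lay below foxd2.S (0.33 and 0.24).

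Foxh1.L, the Smad partner in Nodal signalling, had the lowest difference of all members, -0.21 ± 0.13 (adjusted p = 0.424, limma). It read 1.00 and 0.850 with zic1 and 1.00, 1.00 and 1.22 with beta globin. Zic1 replicate 1 and control replicates 1 and 2 held the same deposited value, and the difference rested on the remaining 2 arrays. With any 1 array left out it ran from -0.33 to -0.095. Control replicate 3, where endoderm markers were highest, was also the highest array of foxh1.L. The part of endoderm cells in that value was not tested.

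Both copies of foxa4, a gene of notochord and floor plate, were flat. Foxa4.L read between 0.988 and 1.02 in all 5 arrays, and foxa4.S between 0.997 and 1.00 in 4 arrays and 0.874 in control replicate 1. Their differences were 0.02 ± 0.07 and 0.06 ± 0.09. Foxc2.S, a gene of paraxial mesoderm, differed by 0.09 ± 0.09. The highest array of foxa4.L was 1.03 times its lowest, where the median feature spanned 1.304 times. Over the 6 mesendodermal copies the median difference was 0.08. Where 1.69% of all features passed, 3 of 9 copies of mesoderm markers did, all higher, with a median of 0.26. These were myod1.S and myod1.L, of the muscle determination factor, and vegt.L, a T-box gene, named after their values were seen. All zic1 arrays lay above all controls in 5 of the 9 and below them in 0. Endoderm markers went the other way: 0 of 11 copies passed, with a median of -0.15. All zic1 arrays lay below all controls in 5 of the 11 and above them in 1. Of all features 19.9% lay above and 19.5% below.

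The remaining copies were foxk2.L, a broadly expressed factor, and foxr1.L. Foxk2.L differed by 0.08 ± 0.10, and its 2 probe sets by 0.13 and 0.03. Foxr1.L varied within the control group, at 1.44, 1.11 and 0.695, and read 0.840 and 1.00 with zic1. Its difference of -0.18 ± 0.31 (adjusted p = 0.807, limma) had the control range on both sides of the zic1 arrays.

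Genes that work beside forkhead factors were read from lists chosen with earlier results known. Of 4 copies of Tle family genes (tle2.L, tle4.S, tle5.L and tle5.S) 0 passed, with a median of -0.10. Several Fox proteins recruit corepressors of this family. Of 22 copies of Nodal and Smad genes, the setting in which foxh1 acts, 0 passed, with a median of 0.12. Of 13 neural plate copies 2 passed, against 1.69% of all features. The 2 were zic1.S itself (1.74 ± 0.14) and zic2.L (0.91 ± 0.12), and the median over the 13 was 0.51. Of 7 copies of cilia genes, tekt2 and dnah9 among them, 0 passed, with a median of -0.01. Their ccno and tekt2 copies are also among the multiciliated cell markers. All zic1 arrays lay above all controls in 9 of the 13 neural plate copies (zic1.S included) and 8 of the 22 Nodal and Smad copies. They lay below in 0 and 1 of these. The counts above and below were 0 and 2 of 4 for Tle genes and 0 and 0 of 7 for cilia genes. Of all features 19.9% lay above and 19.5% below.

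The forkhead calls depended on how the arrays were modelled. At an adjusted p of 0.10, which 7.04% of features reached, 1 of 19 copies passed, foxd1.L. Array weights, with 6.46% of features past 0.05, also gave foxd1.L alone (adjusted p = 0.0358, limma). With the replicate number as a block 4 of 19 passed, foxd1.L, foxd4l1.1.S, foxi1.L and foxa1.S, but 18.6% of all features passed too. That fit leaves 1 residual degree of freedom, and control replicate 3, which has no zic1 partner, does not enter the difference. The members' share is near that of all features.

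Among all probe sets, zic1 replicate 1 and control replicates 1 and 2 shared exactly equal values in 5.09% to 6.09% of probe sets for each pair, against at most 0.471% for any other pair. Taken as one set, with zic1 replicate 2 and control replicate 3 as the other, they gave a foxd1.L log2 difference of 0.48 in the first set and 0.72 in the second. For foxd4l1.1.S the values were 1.02 and 2.29, and for foxi1.L 0.66 and 0.11. In these 3 copies and in foxd2.S the groups did not overlap, which fixes that sign in both sets. Of all 19 members, 9 were higher with zic1 in both sets, 1 was lower in both and 1 was at 0 in 1 set. The remaining 8 had opposite signs in the 2 sets, among them foxn4.S (0.32 and -0.12) and foxr1.L (-0.59 and 0.52). In foxd4l1.2.L, foxa4.L and foxa4.S the opposite sign rested on a value of -0.001 in the second set. Each set holds 1 zic1 array, so these are values with no test. The share of all features with the same sign in both sets was not computed, so the counts have no background beside them.

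**Figure D4:**
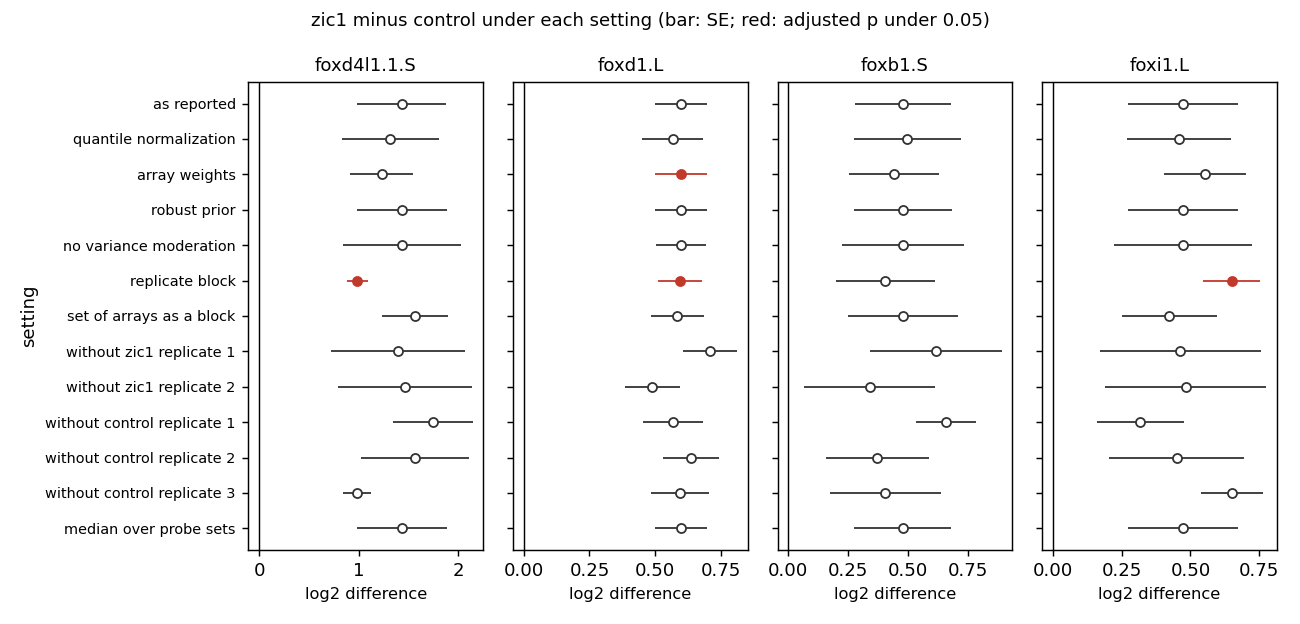
The log2 difference between zic1 and control explants with its SE (bars) is shown for the 4 forkhead copies of largest difference under each setting; red marks an adjusted p under 0.05. All points lie above 0, and foxd4l1.1.S falls to 0.98 where control replicate 3 is left out or does not enter.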

How the data were processed

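The authors deposited linear ratios for 15572 probe sets on 5 arrays; GCOS and RMA are named, per the submitters' processing notes, with no version and no role given. The median over the arrays was exactly 1 in all 15490 probe sets used, which was found from the deposited ratio values and is stated in no source used here. Left out were 81 Affymetrix controls and 1 probe set without 5 values. Log2 ratios of probe sets sharing a single platform symbol were averaged, and other probe sets were kept as they were, giving 13717 features. All 19 member symbols matched the RefSeq gene table (Xenopus_laevis_v10.1) by gene identifier. The comparison used limma 3.58.1 in R 4.3.3 (lmFit, eBayes, 3 residual and 2.33 prior degrees of freedom) with Benjamini-Hochberg adjustment over all features; values are log2 differences ± SE. The fit was tested on simulated data with independent noise and added differences. Such data cannot test the effect of the values shared between arrays or of the outlying control replicate 3. No loess curve was fitted, because the group difference lies on the only axis such ratios offer. A planned search for Zic motifs and a filter on dim probe sets were not run, because promoter sequences and absolute signal were not used here. The members and lists were chosen with earlier results of these data known. All members are reported; array values are printed for those of largest difference overall and in each role group. Replicate numbers were not taken as pairs: the deviations of same-numbered arrays correlated at 0.32 and 0.29, but only 2 pairs exist. The 2 zic1 arrays deviate from their mean by equal and opposite amounts, so the 2 correlations are not separate observations. Plots used matplotlib 3.10.9.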

Additional observations from a re-analysis of the deposited data

How the results depend on the processing

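The count of 0 forkhead copies past the threshold was also 0 after quantile normalization, with a robust prior, without variance moderation, with sets of arrays as a block, with the median over probe sets, with each probe set on its own and with any array left out (0 to 0). It was 1 with array weights, 1 at an adjusted p under 0.10 and 4 with the replicate block. With a single zic1 array, assumed to vary like the controls, limma called 0 of all features (1296 and 2236 unadjusted, at p under 0.05), as it did without moderation (1918), so the 0 in those fits says nothing about the members. It called 20 without control replicate 1, 4 without control replicate 2 and 309 without control replicate 3, 139 of them among the 232 of the fit reported, and 128 after quantile normalization, 39 with the sets as a block and 2545 with the replicate block.

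Of 250 alternative values for single copies, 241 kept their sign, but not all of them could turn. The robust prior, no moderation and the median over probe sets left every difference as it was. So did fitting each probe set on its own for copies with a single probe set. The replicate block repeated the differences found without control replicate 3. Foxi4.2.L turned to 0.021 with array weights, 0.051 with the replicate block and 0.29 in its second probe set, and ran from -0.087 to 0.078 with single arrays left out; the other turns also came with 1 array left out, in foxn4.S (-0.061 to 0.37), foxi4.2.S (-0.093 to 0.27), foxa4.S (-0.0029 to 0.10) and foxr1.L (-0.46 to 0.061). The median over all members was 0.13 with the replicate block, 0.15 over probe sets, and 0.066 to 0.13 with arrays left out. Neural: 0.39 with the block, 0.30 with the sets, 0.31 over probe sets, and 0.24 to 0.43. Epidermal: 0.034 after quantile normalization, 0.12 with the sets, 0.19 over probe sets, and -0.087 to 0.27. Crest: 0.077 to 0.36 with arrays left out. The causes of these shifts were not tested.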
